A study of Saccharomyces cerevisiae with 30 samples.

Results

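The ribosomal RNA of WT pre-40S particles of budding yeast (Saccharomyces cerevisiae) was mapped with DMS-MaPseq, from 5 libraries treated with dimethyl sulfate (DMS) and their 5 untreated controls (NC), 10 of the 30 libraries of the series. The members of the map were the A and C of the reference with an effective depth of at least 1000 reads in all 10 libraries. These were 876 of 923 nucleotides, with 505 of 542 A and 371 of 381 C, and 47 fell below the minimum. The reference had 2012 nucleotides: all 1800 of 18S rRNA, then 212 from the start of internal transcribed spacer 1 (ITS1). It thus spanned the 20S pre-rRNA, which the RDN18 genes of the rDNA repeats on chromosome XII and the spacer after them encode. Positions were counted from the 5' end of 18S, and no genome coordinates were used.

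The series also held pre-40S of 2 mutants and mature 40S subunits, which were not used here. All 10 libraries came from wild-type cells in mid-log growth in YPD, a rich medium, and particles were isolated by means of TAP-tagged Rio2, a kinase bound to late pre-40S. The DMS libraries came from samples treated with 1% DMS at 30 °C for 5 min, and the NC libraries from the same 5 biological replicates without DMS. The purification draws all particles that carry Rio2, so a rate is a mean over assembly states.

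The precursor particle holds the 20S pre-rRNA, in which ITS1 still follows 18S. The endonuclease Nob1 removes ITS1 at the end of 18S in the last steps of maturation, while assembly factors cover the head, the platform and the decoding region. DMS methylates the pairing face of A and C where neither a base pair nor a protein shields it, and reverse transcription then reads the methylated base as a mutation. G and U are not marked on this face in the same way, so they show the change between libraries that is not due to this reaction.

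The stretches below hold some of the nucleotides that the results turn on, and others, such as A1116, A1227 and A1360, lie outside them. They are shown as RNA, 5' to 3', as the deposited profiles give them, in lower case, with capitals at A and C whose mutation rate was higher with DMS at an adjusted p under 0.05. The first set runs from helix 27 to the neck, the second from the neck into helix 44, the third across the end of 18S, the fourth through the loop of helix 24, the fifth through the upper part of helix 44, the sixth through the shoulder, the seventh around C139 and the last in ITS1.
Helix 27, central pseudoknot and neck, nucleotides 1131 to 1154: aaacuuAaAggaauugACggaagg
Neck to helix 44, nucleotides 1626 to 1652: uuuguaCAcAccgCCcgucgCuaguac
End of 18S into ITS1, nucleotides 1784 to 1817: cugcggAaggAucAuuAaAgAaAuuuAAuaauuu
Helix 24, nucleotides 987 to 1007: gaucgaAgaugAucAgauacc
Helix 44, nucleotides 1675 to 1737: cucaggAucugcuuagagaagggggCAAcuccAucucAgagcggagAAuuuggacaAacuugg
Shoulder, nucleotides 486 to 540: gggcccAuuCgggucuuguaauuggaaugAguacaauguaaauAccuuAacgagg
5' domain, nucleotides 130 to 145: ccuuuaCuaCauggua
ITS1, nucleotides 1927 to 1958: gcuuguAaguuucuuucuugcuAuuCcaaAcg

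The replicates were not alike, which has to be known before the map is read. The median effective depth per position was between 5247 and 17414.5 reads in the DMS libraries and between 3955 and 12573.5 in the NC libraries. Total mutation counts were between 54407 and 235847 with DMS and between 75480 and 148649 in NC. The untreated profiles fell into 3 kinds: Pearson's r of their log2 rates across positions was 0.847 between replicates 2 and 3 and 0.899 between replicates 4 and 5, against 0.336 to 0.619 for the other pairs. Positions are not independent replicates, so these values only describe the libraries. Replicate 1 stood apart, with an untreated rate above 5% at 19 of the 876 nucleotides, against 0 or 1 in the other replicates. The highest of these was A599, with 36.5% in NC replicate 1. In replicate 1 the DMS rate was below the NC rate at 78.7% of the A and C, and in replicates 2 to 5 at 21.5% to 46.7%. ITS1 was covered in all 10 libraries, with a mean depth of 0.413 to 0.787 of that over 18S with DMS and 0.421 to 0.910 in NC. How much of the depth over 18S came from RNA without ITS1 was not tested.

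The question of the map was which A and C are open to DMS in the precursor. The mutation rate was higher with DMS at 97 of the 876 A and C, and lower at 0, in edgeR's quasi-likelihood test with the replicate as a block and Benjamini-Hochberg adjustment over 1903 positions of all 4 bases. At an unadjusted p under 0.05, 22 A and C were lower and 156 higher. Of the A, 71 of 505 were higher (14.1%), and of the C, 26 of 371 (7.01%), together 11.1%. At G the same test found 2 of 485 (0.412%), at U 0 of 542 (0.0%), and over all positions 5.2%. At U, 5 positions were higher at an unadjusted p under 0.05 and DESeq2 found 0. The G were G1112 and G1914, with log2 changes of 1.05 and 1.02, which are named here because they were so few. The called A and C had log2 changes of DMS over NC between 0.90 and 4.87, with a median of 1.70, against 0.00 over the 876 members and -0.12 over all positions.

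The DMS rate exceeded the NC rate in every pair at 85 of the 97 nucleotides and in 4 of 5 pairs at the other 12. All 97 had a log2 change above 0 both in replicates 2 and 3 alone and in replicates 4 and 5 alone. Without replicate 1 the test found 181 A and C, which included all 97, and also 10 G and 3 U. Without the replicate block it found 47, all of them among the 97. A stricter description needs no model: at 61 A and C (6.96%), the lowest of the 5 DMS rates was above the highest of the 5 NC rates. This held at 57 of the 97 and at 0 of the 1027 G and U.

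**Figure D1:**
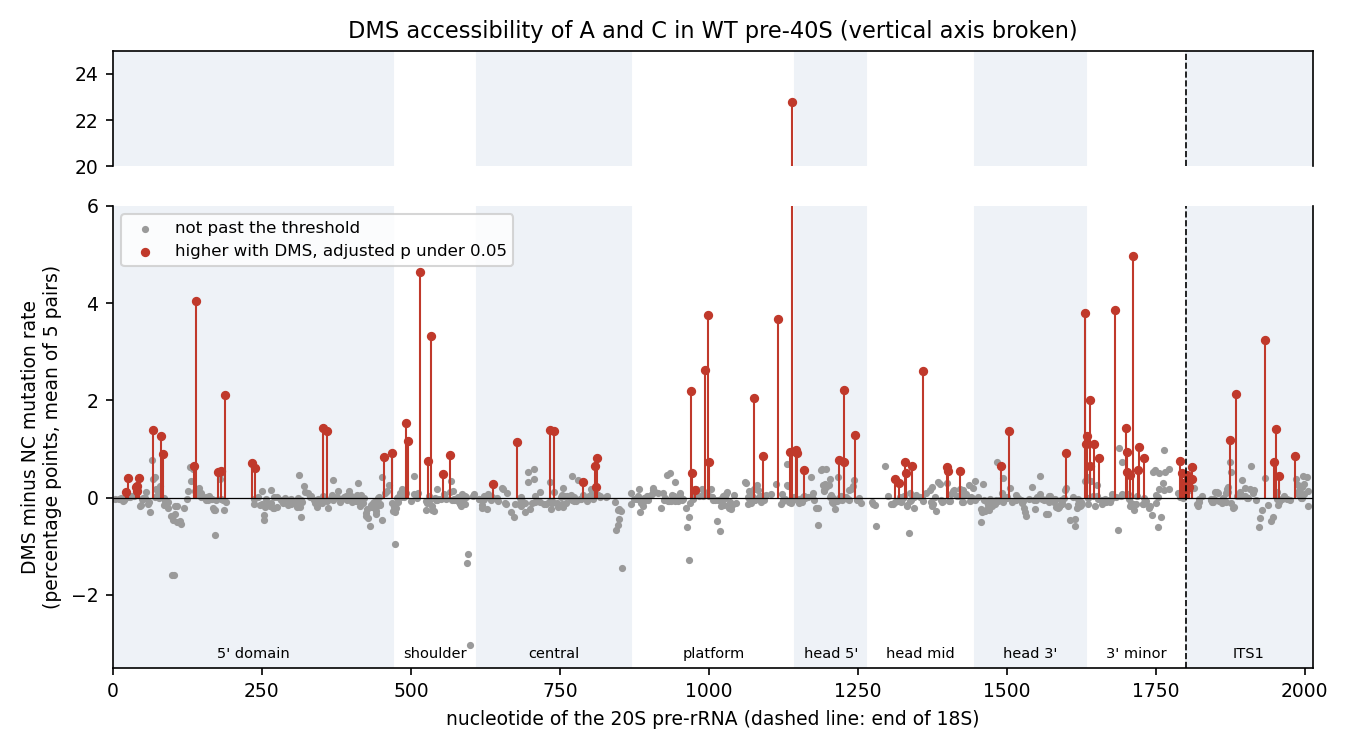
Mean difference of DMS and NC mutation rates (percentage points, 5 pairs) at each of the 876 A and C along the 20S pre-rRNA, with the 97 higher nucleotides in red and the others in grey. A1139 stands alone at 22.8 percentage points on the upper part of the broken axis, and the next nucleotide, A1712, is at 4.98.

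Accessibility was concentrated in few nucleotides. Of the summed positive differences over the 876 members, A1139 alone held 12.2%, the 10 highest held 31.0%, the 20 highest 42.1% and the 100 highest 76.6%. The 20 nucleotides with the largest mean difference among those higher in every pair were 15 A and 5 C, and 2 of them lay in ITS1. At 19 of the 20 the DMS rates did not overlap the NC rates, the exception being A1885. All DMS rates were above all NC rates at 6.96% of the 876 members. The 20 were picked for large differences in every pair, so their separation is no separate evidence. Of the 97, 18 had a mean difference of at least 2 percentage points, 18 had 1 to 2, 40 had 0.5 to 1, and 21 were below 0.5.

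The most open nucleotide was A1139, between helix 27 and the neck. Its mutation rates were 24.8%, 18.3%, 21.7%, 30.0% and 24.1% in DMS replicates 1 to 5, against 1.54%, 0.331%, 0.724%, 0.42% and 1.94% in NC replicates 1 to 5. Every DMS library was far above every NC library, and A1139 ranked first in each of the 5 replicates. The mean difference was 22.8 ± 4.28 percentage points (SD, n = 5 pairs), with a log2 change of 4.87 (SE 0.34, edgeR adjusted p = 2.52e-07). In replicates 4 and 5 alone A1139 had a log2 change of 4.77 but was not past the threshold (edgeR adjusted p = 0.440). The next 3 nucleotides after it, G1140 to A1142, can pair with U12 to C14, which in the mature subunit form the central pseudoknot that ties the 5' end of 18S to the start of the head. Its direct neighbour was not past the threshold: A1138 had 1.29%, 0.527%, 0.511%, 0.719% and 0.739% with DMS and 1.56%, 0.493%, 0.625%, 0.72% and 0.90% in NC (log2 change -0.16, edgeR adjusted p = 0.877). A1137, on the other side of A1138, was higher with a mean difference of 0.942 ± 0.624 percentage points (SD, n = 5 pairs; log2 change 1.25, edgeR adjusted p = 0.0191), although replicate 1 had 2.45% with DMS and 2.46% in NC and the call was lost without the replicate block (adjusted p = 0.740). On the opposite strand C13 and C14, both tested, had log2 changes of -0.16 and -0.04 (edgeR adjusted p = 0.916 and 0.988). A1137, A1138, C13 and C14 were picked for their place after their values were seen.

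Helix 27 itself held A1116, which had 8.94%, 3.31%, 2.96%, 4.77% and 3.73% in the DMS libraries and 2.92%, 0.231%, 0.625%, 0.793% and 0.782% in the NC libraries. All DMS rates were above all NC rates, but replicate 1 was the highest on both sides. The mean difference was 3.67 percentage points, and 3.08 without replicate 1 (log2 change 2.45, edgeR adjusted p = 6.75e-05). Helix 27 of the bacterial subunit packs against the decoding helix, and A1116 lies in its 5' strand. Without the replicate block A1116 was not past the threshold (adjusted p = 0.104).

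**Figure D2:**
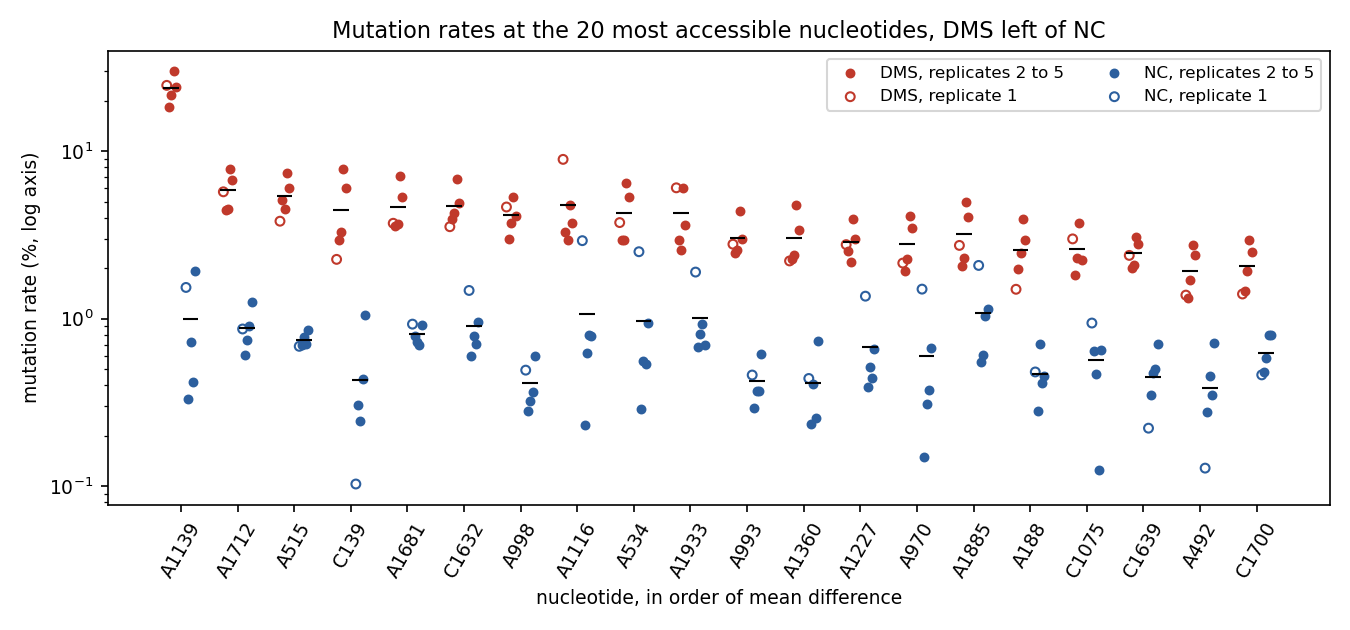
Mutation rates (%, log axis) at the 20 nucleotides with the largest mean difference, with DMS in red left of NC in blue, 1 point per library, open circles for replicate 1 and a black bar for the mean of 5. A1139 lies between 18.3% and 30.0% with DMS, and A1885 is the nucleotide whose DMS and NC points overlap.

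In the neck, the helix that joins head and body (helix 28), single nucleotides on both strands were open next to the decoding site. In the bacterial subunit its lowest pairs correspond to U1145 with A1633, G1146 with C1632, A1147 with U1630 and C1148 with G1629, and all of these are Watson-Crick pairs in the yeast sequence. The 4 A and C among them, A1147, C1148, C1632 and A1633, were all higher with DMS; the group was put together after these values were seen. C1632 was the most open of them, with 3.54%, 3.91%, 4.29%, 6.83% and 4.94% in DMS libraries and 1.47%, 0.60%, 0.791%, 0.71% and 0.952% in NC libraries. The lowest DMS rate was above the highest NC rate, by a mean of 3.8 ± 1.48 percentage points (SD, n = 5 pairs; log2 change 2.44, edgeR adjusted p = 1.59e-05). A1633 had a mean difference of 1.11 percentage points (log2 change 1.28, edgeR adjusted p = 0.00938), and it was lost without the replicate block (adjusted p = 0.242). On the 5' strand A1147 had 1.12%, 1.34%, 1.24%, 1.97% and 1.67% with DMS, against 0.511%, 0.409%, 0.513%, 0.522% and 0.461% in NC, again without overlap. C1148 beside it had a log2 change of 1.44 (edgeR adjusted p = 0.00427, and 0.0965 without the replicate block). Other tested nucleotides of the same strands were not past the threshold. A1631, between U1630 and C1632, was higher in every pair with a log2 change of 0.42 (edgeR adjusted p = 0.542), and A1151 and A1152 had -0.07 and -0.17 (edgeR adjusted p = 0.963 and 0.873). C1623, C1624 and C1625 had log2 changes of -0.33, -0.20 and -0.26 (edgeR adjusted p = 0.765, 0.852 and 0.831). From U1145 to A1152, 2 of 4 tested A and C were thus called, and from C1623 to A1633, 2 of 6, against 11.1% over all A and C.

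From the neck the strand runs through the universal sequence of the decoding site into helix 44, and its openness changed from base to base. A1635 was higher with 0.738%, 1.36%, 1.75%, 2.75% and 2.21% in DMS libraries and 0.283%, 0.372%, 0.529%, 0.511% and 0.778% in NC libraries, while C1636 and C1637 after it had log2 changes of -0.41 and -0.04 (edgeR adjusted p = 0.638 and 0.98). C1639 and C1640, at the start of helix 44, were both higher. C1639 had 2.39%, 1.99%, 2.11%, 3.08% and 2.78% with DMS and 0.222%, 0.348%, 0.475%, 0.501% and 0.708% in NC, with no overlap between the groups. Its mean difference was 2.02 ± 0.395 percentage points (SD, n = 5 pairs), with a log2 change of 2.46 (edgeR adjusted p = 8.89e-06). C1640 had 0.66 ± 0.146 percentage points (log2 change 1.74, edgeR adjusted p = 0.000608) and C1646 further on 1.1 ± 0.489 (log2 change 1.83, edgeR adjusted p = 0.000396; SD, n = 5 pairs).

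The other side of the decoding site differed from this strand in its calls. A1755 and A1756, the adenines that read the codon and anticodon in the mature ribosome, were not past the threshold. A1756 had 1.27%, 1.62%, 1.23%, 1.47% and 1.0% in DMS libraries and 1.35%, 0.832%, 0.875%, 0.42% and 0.608% in NC libraries, higher in 4 of 5 pairs with overlap (log2 change 0.77, edgeR adjusted p = 0.196). Without replicate 1 its log2 change was 0.95 (edgeR adjusted p = 0.00532). A1755 had a log2 change of 0.34 (edgeR adjusted p = 0.767). The difference between these adenines and C1639 was not tested.

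Helix 44, the long helix of the 3' minor domain that carries the decoding site, held the next most open nucleotide after A1139. A1712 had 5.72%, 4.47%, 4.53%, 7.81% and 6.73% in DMS libraries, against 0.867%, 0.603%, 0.748%, 0.905% and 1.25% in NC libraries. All DMS rates were above all NC rates, and A1712 ranked 2 or 3 in every replicate. Its mean difference was 4.98 ± 1.29 percentage points (SD, n = 5 pairs; log2 change 2.75, edgeR adjusted p = 6.79e-07), with log2 changes of 2.74 in replicates 2 and 3 and 2.75 in replicates 4 and 5. A1681, on the opposite strand, had 3.71%, 3.56%, 3.67%, 7.08% and 5.31% with DMS, against 0.927%, 0.79%, 0.723%, 0.70% and 0.918% in NC. It was also free of overlap, with a mean difference of 3.85 ± 1.57 percentage points (SD, n = 5 pairs; log2 change 2.47, edgeR adjusted p = 6.97e-06).

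Between these 2 adenines lies the tip of helix 44, a loop of 4 bases closed by G1698 and C1703. All 3 of its A and C were higher, which made it a stretch of open bases. C1700 led with 1.4%, 1.47%, 1.93%, 2.94% and 2.5% in DMS libraries and 0.461%, 0.481%, 0.578%, 0.798% and 0.798% in NC libraries, a mean difference of 1.43 ± 0.506 percentage points (SD, n = 5 pairs; log2 change 1.70, edgeR adjusted p = 0.000324). A1701 and A1702 had 0.531 and 0.935 percentage points (edgeR adjusted p = 0.0405 and 0.000669), and A1701 was lost without the replicate block (adjusted p = 0.330). C1703, C1705 and C1706, the C of the closing stem, were not past the threshold. From C1640 to C1759, 12 of 58 tested A and C were higher (20.7%, against 11.1% over all A and C), and the remaining ones were C1646, A1655, A1707, A1721, A1722 and A1731 beside C1640. A1707 and A1731 were lost without the replicate block (adjusted p = 0.278 and 0.0745).

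The end of 18S, where Nob1 cuts, had open nucleotides on both sides of the cleavage site. The pairs of helix 45 that were checked in the sequence ran outward to C1772 with G1789. The stretch from A1790 to A1800 is called the tail here, but whether A1790 and A1791 extend the stem was not checked. The count and the mean given for the tail may thus include bases of the stem. Local folding of the sequence gave A1790 a probability of being unpaired below 0.2. In this tail 4 of 6 tested A and C were higher (A1790, A1794, A1797 and A1800). In the first 11 bases of ITS1, A1801 to A1811, 5 of 7 were higher (A1802, A1804, A1806, A1810 and A1811). Over all A and C the share was 11.1%, and both stretches were bounded after their values were seen. A1797 and A1804 were higher in 4 of 5 pairs and the other 7 in every pair. Without the replicate block A1790, A1794 and A1811 stayed past the threshold. A1797 and A1800 were then lost in the tail (adjusted p = 0.439 and 0.243), as were A1802, A1804, A1806 and A1810 in ITS1 (adjusted p = 0.288, 0.138, 0.198 and 0.102). A1790 had 0.30%, 0.634%, 0.62%, 1.41% and 1.34% with DMS, against 0.0377%, 0.0726%, 0.0745%, 0.181% and 0.162% in NC, with no overlap and a log2 change of 3.02 (SE 0.31, edgeR adjusted p = 8.89e-06). Its neighbour A1791 had 0.0605%, 0.129%, 0.0801%, 0.204% and 0.162% with DMS and 0.115%, 0.0564%, 0.0636%, 0.199% and 0.105% in NC, a log2 change of 0.42 (edgeR adjusted p = 0.799). Several of these nucleotides, A1790 among them, were picked for their place after their values were seen.

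At the cleavage site itself A1800, the last base of 18S, had 0.408%, 0.325%, 0.218%, 0.734% and 0.631% in DMS libraries and 0.187%, 0.0578%, 0.0996%, 0.302% and 0.201% in NC libraries. It was higher in every pair although the 2 groups overlapped (log2 change 1.54, edgeR adjusted p = 0.00886). A1801, the first base of ITS1, had 0.232%, 0.176%, 0.324%, 0.635% and 0.902% with DMS and 0.0357%, 0.0894%, 0.153%, 0.363% and 0.399% in NC, higher in every pair but short of the threshold (log2 change 1.11, edgeR adjusted p = 0.0647). Without replicate 1 its log2 change was 1.03 (edgeR adjusted p = 0.00873). Rates here were low, so the steps were large in ratio and small in percentage points: the tail averaged 0.311 ± 0.175 and the first bases of ITS1 0.331 ± 0.122 percentage points (SD, n = 5 pairs). The tail and the first bases of ITS1 were above 0 in all 5 replicates, with 0.110 and 0.277 in replicate 1, in which the mean over all A was -0.327.

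**Figure D3:**
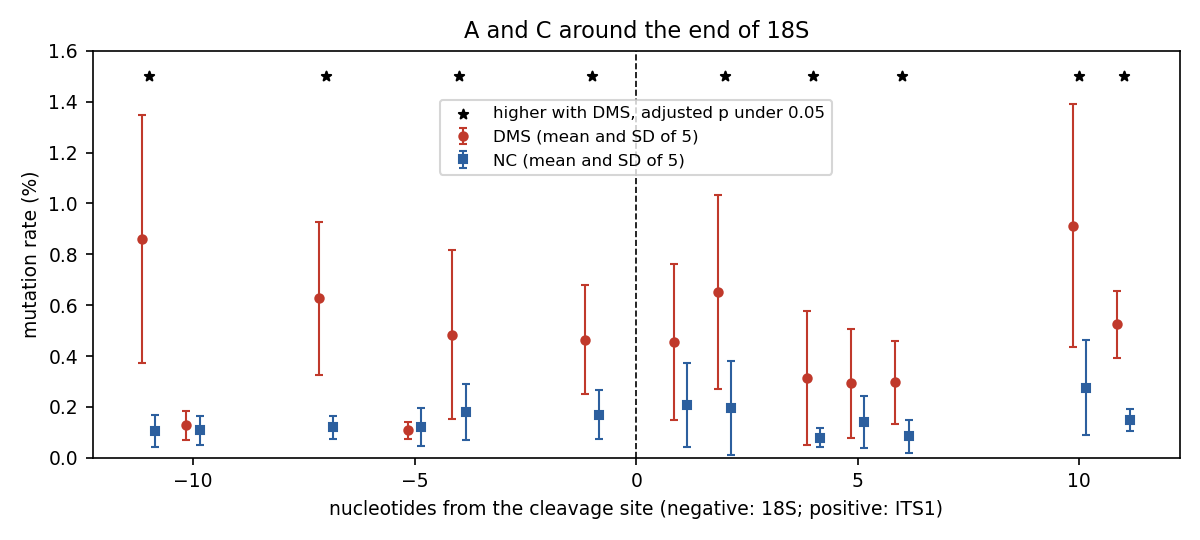
Mutation rate (%) of the tested A and C from 11 bases before to 11 bases after the cleavage site, as mean and SD of 5 libraries, with DMS in red left of NC in blue and a star at each nucleotide higher with DMS. Stars stand on both sides of the dashed line, 4 in 18S and 5 in ITS1.

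Helix 45 could be read only in part. A1781 and A1782, its loop adenines that are dimethylated in mature 18S, had lowest effective depths of 334 and 375 reads and were left out, as were A1776, C1783 and C1784. C1773, in the stem, had a log2 change of 0.30 (edgeR adjusted p = 0.775) with untreated rates between 1.42% and 4.29%.

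The platform, which lines the mRNA exit channel in the mature subunit, had 11 of 126 tested A and C higher (8.73%, against 11.1% over all A and C). Besides A1116, A1137 and A1139 these were A970, A971, A977, A993, A998, A1001, C1075 and A1091. A971 and A977 were lost without the replicate block (adjusted p = 0.261 and 0.334). A998 and A1001 lie in the loop of helix 24 in the mature subunit, and A993 lies before it in the same helix. The whole-length fold of the sequence closes this loop from 1000 to 1007, with A1001 in it and A998 in its stem (probability of being unpaired in local folding 0.356). A998 had 4.65%, 3.01%, 3.74%, 5.36% and 4.13% with DMS, against 0.492%, 0.281%, 0.324%, 0.363% and 0.601% in NC. All DMS rates lay above all NC rates, and the mean difference was 3.76 ± 0.854 percentage points (SD, n = 5 pairs; log2 change 3.37, SE 0.22, edgeR adjusted p = 1.7e-07). A993 had 2.79%, 2.47%, 2.57%, 4.42% and 3.0% in DMS libraries and 0.46%, 0.292%, 0.371%, 0.37% and 0.614% in NC libraries, also without overlap (log2 change 2.87, edgeR adjusted p = 1e-06). A1001 had 0.739 percentage points (edgeR adjusted p = 0.00525). A970 differed by 2.19 ± 1.16 (SD, n = 5 pairs; edgeR adjusted p = 0.000396) and C1075 by 2.06 ± 0.929 percentage points (SD, n = 5 pairs; edgeR adjusted p = 0.000912). A970 was lost without the replicate block (adjusted p = 0.0571).

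The shoulder, nucleotides 471 to 610 with helices 16 to 18, had 7 of 65 higher (10.8%, against 11.1% over all A and C). These were A492, C495, A515, A529, A534, C554 and C565. C554 was lost without the replicate block (adjusted p = 0.278). A515 was the third most open nucleotide of the map, with 3.82%, 5.12%, 4.52%, 7.4% and 6.06% in DMS libraries, against 0.684%, 0.692%, 0.774%, 0.71% and 0.86% in NC libraries. The NC rates were nearly level and the DMS rates all far above them, by a mean of 4.64 ± 1.38 percentage points (SD, n = 5 pairs; log2 change 2.84, edgeR adjusted p = 1e-06). A534 had 3.75%, 2.96%, 2.94%, 6.45% and 5.36% with DMS and 2.51%, 0.289%, 0.559%, 0.535% and 0.941% in NC. Its NC rate in replicate 1 stood above those of the other replicates, so its difference was 3.33 percentage points in all and 3.85 without replicate 1 (edgeR adjusted p = 0.000324, and 0.0578 without the replicate block). A492 and C495 are the first and last bases of a predicted loop of 4, and both were higher (1.53 and 1.16 percentage points, edgeR adjusted p = 0.00011 and 0.0107, and 0.0965 for C495 without the replicate block). C565 lies in helix 18, which lines the entry of the mRNA, and had a log2 change of 1.86 (edgeR adjusted p = 0.00035), whereas the 34 tested A and C after it, from C566 to A636, included 0 calls.

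The 5' domain had 20 of 204 higher (9.80%), and the central domain with its expansion segment had 8 of 100 (8.0%). Over all A and C the share was 11.1%. C139 led the 5' domain with 2.26%, 2.95%, 3.29%, 7.84% and 6.02% in DMS libraries and 0.103%, 0.304%, 0.245%, 0.436% and 1.05% in NC libraries. The groups did not overlap, although replicates 4 and 5 had more than the others with DMS and replicate 5 more than the others in NC. Its mean difference was 4.04 ± 2.16 percentage points (SD, n = 5 pairs; log2 change 3.48, edgeR adjusted p = 2e-06). A188 had 2.1 and A352 1.42 percentage points (edgeR adjusted p = 6.03e-05 and 0.000848). The bases A39, A40, A41 and A43 formed the longest stretch of consecutive open A and C, at low rates: A43 had 0.357%, 0.224%, 0.295%, 0.79% and 0.625% with DMS and 0.0539%, 0.0229%, 0.127%, 0.030% and 0.0856% in NC (log2 change 2.78, edgeR adjusted p = 0.000434). A40 was the lowest of the stretch at 0.127 percentage points and was lost without the replicate block (adjusted p = 0.103). The other called nucleotides of the 5' domain were A22, C25, A67, A80, A84, C136, C176, A181, C233, C239, A359, C455 and C469. Of these only C25, A80, A84 and A359 stayed past the threshold without the replicate block, and C136 and C239 were higher in 4 of 5 pairs.

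In the central domain A734, C741, A678, A789 and C637 were higher beside the stretch A809, A811 and A812. A734 had 1.55%, 3.28%, 2.77%, 2.39% and 3.18% in DMS libraries and 1.05%, 1.64%, 1.43%, 1.11% and 1.0% in NC libraries, higher in each pair but with overlapping groups (log2 change 1.04, edgeR adjusted p = 0.0188). It was lost without the replicate block (adjusted p = 0.109). A678 had 1.14 percentage points without overlap. A809 and A812 had 0.657 and 0.822 percentage points (edgeR adjusted p = 0.000489 and 0.000324), and A811 between them had 0.221 (edgeR adjusted p = 0.0346, and 0.174 without the replicate block). The longest run of tested A and C without a call followed this stretch, 59 nucleotides from A814 to C969, with a mean difference of -0.0917 percentage points. That mean includes large negative values of replicate 1, such as -7.22 at A855 and -6.78 at A966. The run is not a closed stretch. Its A929 passed in replicates 2 and 3 alone and in replicates 4 and 5 alone (edgeR adjusted p = 0.0111 and 5.25e-13). In replicate 1 A929 had -3.25 percentage points.

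In the head 21 of 218 tested A and C were higher (9.63%, against 11.1% over all A and C). Its 5' part had 7 of 59 (11.9%), the part with helices 34, 35 and 38 had 9 of 71 (12.7%), and the 3' part had 5 of 88 (5.68%). A1227 was the highest of the 5' part, with 2.77%, 2.55%, 2.19%, 3.93% and 2.99% with DMS against 1.36%, 0.39%, 0.517%, 0.443% and 0.656% in NC, and no overlap (mean difference 2.21 ± 0.806 percentage points, SD, n = 5 pairs; edgeR adjusted p = 0.000193). Its neighbour A1226 was higher as well (0.738 percentage points, edgeR adjusted p = 0.000797, and 0.204 without the replicate block), as was C1246 (1.3, edgeR adjusted p = 0.0114, and 0.0932 without the replicate block). A1360 led the middle part with 2.21%, 2.28%, 2.4%, 4.79% and 3.4% in DMS libraries and 0.439%, 0.236%, 0.406%, 0.255% and 0.731% in NC libraries. It is the first base of a predicted loop of 4, and its groups were clearly apart (log2 change 2.92, edgeR adjusted p = 2e-05). A1341 and C1399 followed with 0.649 and 0.628 percentage points (edgeR adjusted p = 0.00152 and 0.00281, and 0.112 for C1399 without the replicate block). In the 3' part A1503, in a predicted loop of 4, had 1.79%, 1.98%, 2.07%, 3.41% and 2.8% with DMS and 1.05%, 0.938%, 0.984%, 1.19% and 1.04% in NC, without overlap (log2 change 1.18, edgeR adjusted p = 0.00321).

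In helix 34 of the head, which faces the mRNA channel, C1274 and C1280 were not past the threshold. C1280 had 1.12%, 1.06%, 1.63%, 2.46% and 3.6% in DMS libraries and 2.85%, 1.87%, 2.28%, 2.32% and 3.43% in NC libraries, so that both groups had high rates and overlapped (log2 change -0.48, edgeR adjusted p = 0.565). C1274 had a log2 change of -0.14 (edgeR adjusted p = 0.912). The longest run without a call in the head was from A1505 to C1599, with 42 tested nucleotides. Within it A1556 passed in replicates 2 and 3 alone and in replicates 4 and 5 alone (edgeR adjusted p = 0.0189 and 2.62e-11).

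ITS1 had 12 of 87 tested A and C higher (13.8%), and the 3' minor domain 18 of 76 (23.7%), the highest share of the 9 regions. The other 8 regions lay between 5.68% and 13.8%, against 11.1% over all A and C. In ITS1 A1933 led with 6.05%, 2.94%, 2.59%, 6.04% and 3.63% with DMS, against 1.9%, 0.68%, 0.813%, 0.927% and 0.699% in NC, and all DMS rates were above all NC rates. Its mean difference was 3.25 ± 1.37 percentage points (SD, n = 5 pairs; log2 change 2.11, edgeR adjusted p = 9.34e-05). A1885 had 2.74%, 2.07%, 2.29%, 4.97% and 4.05% in DMS libraries and 2.08%, 0.552%, 0.603%, 1.03% and 1.15% in NC libraries. It was higher in every pair, but NC replicate 1 reached the level of DMS replicate 2 (log2 change 1.66, edgeR adjusted p = 0.00152, and 0.0965 without the replicate block). C1952 had a mean difference of 1.42 ± 0.921 percentage points (SD, n = 5 pairs; edgeR adjusted p = 0.000669), and C1875, A1949, A1956 and A1983 were higher too. C1875, A1949 and A1956 were lost without the replicate block (adjusted p = 0.0869, 0.551 and 0.108), and A1949 was higher in 4 of 5 pairs.

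Averaged over all its A and C, ITS1 was not told apart from 18S by the test over pairs. The mean subtracted rate was 0.185 ± 0.301 percentage points over 87 nucleotides of ITS1 and 0.125 ± 0.302 over 789 of 18S (SD, n = 5 pairs). The difference of 0.0601 ± 0.0471 was positive in 4 of 5 pairs, and replicate 2 had -0.0215 (exact test by sign flips of the 5 differences, two-sided p = 0.125, adjusted over 9 such tests p = 0.225). With 5 pairs this exact test cannot go below p = 0.0625.

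The means over all A and all C depended on the background of each pair. At A the rate averaged 0.913% ± 0.183 with DMS and 0.704% ± 0.247 in NC, and at C 0.665% ± 0.174 with DMS and 0.640% ± 0.159 in NC (SD, n = 5 each). The difference at A was -0.327 in replicate 1 and 0.20, 0.210, 0.583 and 0.379 percentage points in replicates 2 to 5 (exact sign-flip p = 0.25, adjusted p = 0.375). At G and U replicate 1 was likewise far below 0, at -0.455 and -0.577, and the other replicates lay between -0.0311 and 0.0805. Relative to G and U of the same pair, A was higher by 0.301 ± 0.132 and C by 0.117 ± 0.0390 percentage points (SD, n = 5 pairs), each in 5 of 5 pairs (exact sign-flip p = 0.0625, the smallest possible, adjusted p = 0.141). A exceeded C by 0.184 ± 0.102 percentage points in 5 of 5 pairs (SD, n = 5 pairs; exact sign-flip p = 0.0625, adjusted p = 0.141).

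By local folding, the mean difference was larger in every pair at A and C predicted to be unpaired. A local folding of the deposited sequence (RNAplfold) gave each base a probability of being unpaired, and 410 A and C had at least 0.5 and 466 less. The mean subtracted rate was 0.267 ± 0.370 percentage points at predicted unpaired and 0.0119 ± 0.244 at predicted paired nucleotides (SD, n = 5 pairs). The difference was 0.0817, 0.218, 0.207, 0.439 and 0.328 in replicates 1 to 5, with a mean of 0.255 ± 0.135 (SD; exact sign-flip p = 0.0625, adjusted p = 0.141). With pairing taken from a fold of the whole sequence instead, the mean difference was 0.128 percentage points (exact sign-flip p = 0.125). That p is above 0.0625, so with this fold the sign was not the same in every pair. Called nucleotides made up 17.3% of the predicted unpaired (71 of 410) and 5.58% of the predicted paired (26 of 466). By probability, 10 of 252 were called below 0.2 (3.97%), 16 of 214 from 0.2 to 0.5 (7.48%), 27 of 188 from 0.5 to 0.8 (14.4%) and 44 of 222 from 0.8 (19.8%). Adjacent nucleotides share a predicted helix, so these shares have no test.

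**Figure D4:**
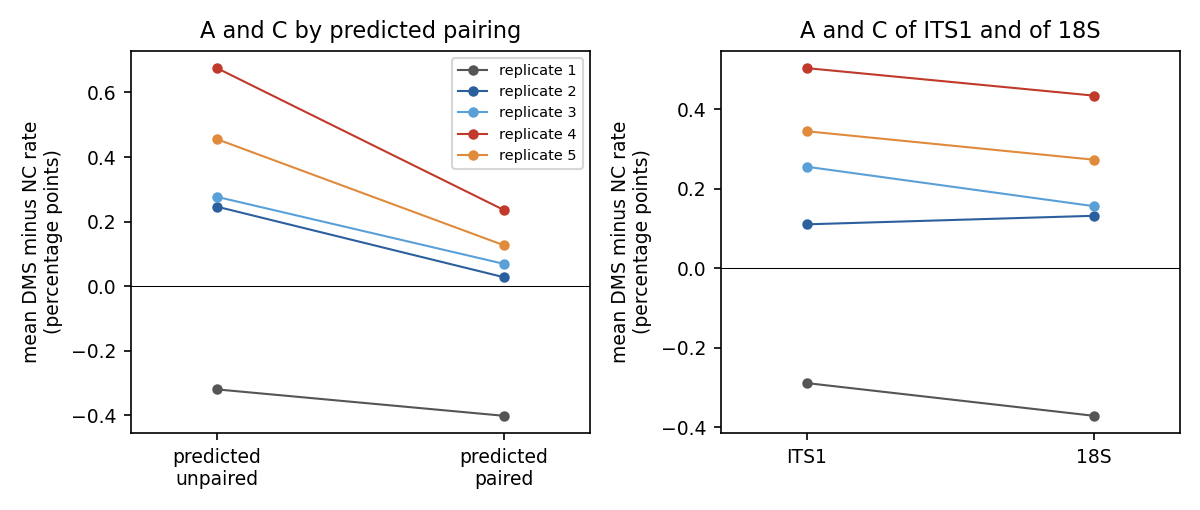
Mean DMS minus NC rate (percentage points) in each of the 5 replicates, at predicted unpaired left of predicted paired A and C, and in ITS1 left of 18S. All 5 lines fall from predicted unpaired to predicted paired, while replicate 2 runs against the other replicates between ITS1 and 18S.

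The folding places some open nucleotides in helices. The 10 called ones with a probability below 0.2 were A22, A67, C136, C139, C176, C565, A809, A811, A812 and A1790, and C139, the fourth most open nucleotide, had a probability of 0.0237. Of 19 hairpin loops that the whole-length fold (RNAfold) closed with at least 4 stacked pairs, 17 had a tested A or C and 8 had a called base. In them 11 of 49 tested A and C were called (22.4%, against 11.1% over all A and C). In the fold as a whole 17.3% of hairpin loop bases were called (14 of 81), 15.9% of other unpaired bases (44 of 277) and 7.53% of paired bases (39 of 518). The prediction knows neither proteins nor pairs over more than 100 bases in its local form, so it is no map of the particle.

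How far the replicates agreed depended on the measure. Over the 876 A and C, Pearson's r of the subtracted rates was 0.915 to 0.969 between replicates 2 to 5 (6 pairs of replicates) and 0.625 to 0.648 between replicate 1 and the others. Much of this rested on A1139: without it the values were 0.750 to 0.924 and 0.318 to 0.377. Spearman's rho, which weighs all nucleotides alike, was 0.295 to 0.673 between replicates 2 to 5 and 0.231 to 0.324 with replicate 1. Nucleotides are not independent replicates and share their library, so no p is given.

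**Figure D5:**
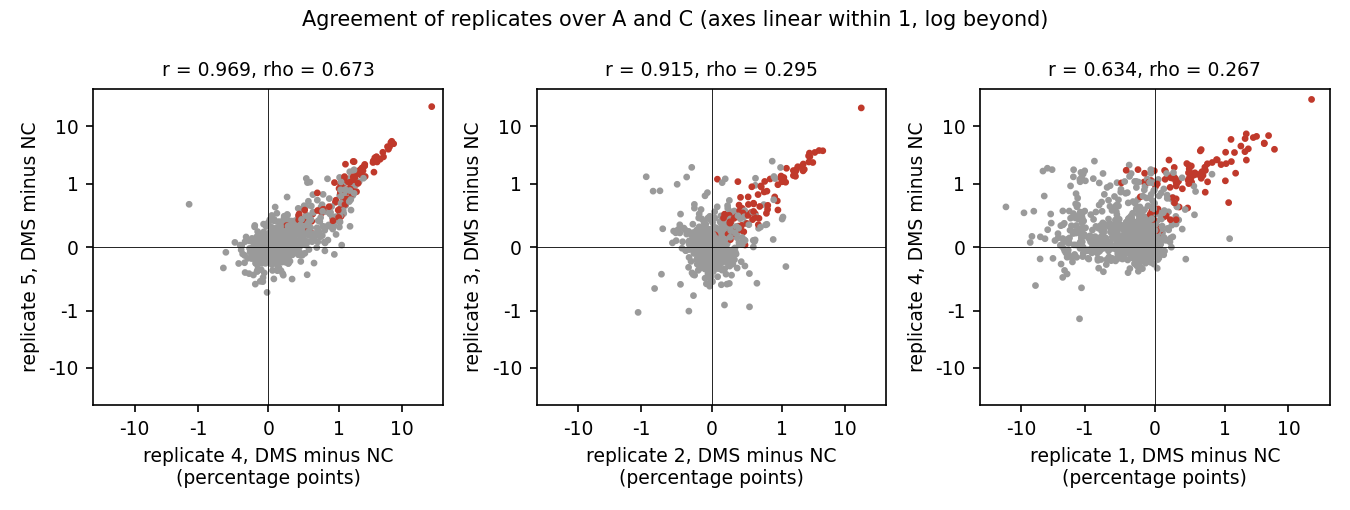
Subtracted rates (percentage points, axes linear within 1 and logarithmic beyond) of the 876 A and C in replicate 5 against 4, replicate 3 against 2 and replicate 4 against 1, with nucleotides higher with DMS in red. The red points follow the diagonal, and in the panel with replicate 1 most grey points lie left of 0.

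The 88 highest A and C of each replicate (10%) overlapped between replicates 2 to 5 by 59 to 72 nucleotides (67.0% to 81.8% of each list) and between replicate 1 and the others by 50 to 55. All 5 replicates shared 40 of them, and all 40 were among the 97 called. The calls rest on the same 5 pairs, so that overlap is no separate evidence of agreement. The calls of disjoint replicates overlapped as well: replicates 2 and 3 alone gave 101 of the 876 A and C, and replicates 4 and 5 alone gave 241. Called in both were 100, which made 99.0% of the shorter list and 41.5% of the longer. Replicates 2 and 3 alone also gave 2 G and 3 U, and replicates 4 and 5 alone gave 20 G and 7 U. The main fit gave 2 G and 0 U. Replicate 1 took no part in those fits, and at 73 of these 100 its DMS rate was above its NC rate, against 187 of all 876 (21.3%).

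The replicates differed in scale. The mean subtracted rate over the 97 called nucleotides was 0.978, 1.06, 1.14, 2.19 and 1.58 percentage points in replicates 1 to 5. The SD over the 5 replicates was a median of 0.523 times the mean at a called nucleotide, and 0.293 times after each replicate was divided by its own mean over the 97. Without replicate 1 these values were 0.425 and 0.20. The spread was wider than counting error alone: the median SD over the 5 pairs was 2.10 times that expected from the depth over the 876 members, and 1.33 times without replicate 1. At the called nucleotides it was 2.74 times, and 2.60 times without replicate 1. The normalized accessibility for 18S in the authors' deposited table put A1139 first too. Its r with the subtracted rates was 0.978, 0.977, 0.995 and 0.992 in replicates 2 to 5 and 0.682 in replicate 1, and 17 of the 20 highest 18S nucleotides were shared. Among its own 5 replicates, replicate 1 included, the deposited values had Pearson's r of 0.949 to 0.981. Spearman's rho among them was 0.438 to 0.686.

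Depth limited the map at 47 A and C, of which 21 lay in the 5' domain, 7 in the central domain, 6 each in the shoulder and the 3' minor domain, 5 in ITS1 and 2 in the middle part of the head. Just below the minimum, C190 had a lowest depth of 999 reads and a difference of 0.0382 percentage points. Just above it, A253 and A869 had 1003 reads and differences of -0.362 and 0.0925 percentage points. Among nucleotides that were not called, mean differences reached 1.01 percentage points at A1689 (log2 change 0.89, edgeR adjusted p = 0.117), so a grey point in the map is not a closed base.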

How the data were processed

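DMS-treated and untreated libraries of 5 WT pre-40S replicates were analysed. The profiles deposited by the authors hold, per the file headers, mutation counts, read depth and effective depth per position as counts, and a mutation rate as a fraction, mutations over effective depth (a recomputation from the counts was off by at most 5e-07). The deposited accessibility signal for 18S was normalized by the authors in a way not given in the sources used here, as are the aligner and the mutation caller. Counting intervals from these depths cover counting error only.

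Mutation counts were tested in edgeR 4.0.16 (R 4.3.3) by the quasi-likelihood test, with log effective depth as offset and the replicate as block, and p-values adjusted by the Benjamini-Hochberg method over 1903 positions (threshold 0.05). The series' design gives each replicate its own untreated control. In a check of the pairing, deviations of log2 rates from the group means correlated at 0.574 to 0.834 between libraries of the same number and at -0.553 to 0.678 between others, and all 5 treated libraries correlated best with their own number. Means were tested by exact two-sided sign-flip tests over the 5 pairs, adjusted over 9 tests. Pairing was predicted with ViennaRNA 2.7.2 (window 150, span 100). Figures were drawn with matplotlib 3.10.9 in Python 3.11.15 (numpy 2.4.6, scipy 1.17.1, pandas 2.3.3).

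Named nucleotides were the 20 with the largest mean difference among those called and higher in 5 of 5 pairs, up to 3 such in each of 9 regions, stretches of at least 3 called A and C that follow each other among the tested ones, and fixed sites in helices 34, 44 and 45 and at the cleavage site; others are named as picked for their place. The region bounds, lists and sites were chosen with earlier results of these data known. Alternatives were no block, other offsets (G and U scale, TMM), DESeq2 1.42.0, limma 3.58.1 with a pseudocount of 0.001, depth minimums of 500 and 2000, a mean rate of at least 0.001, A and C alone and each replicate left out. The test was checked on simulated data. It called 59 of 100 positions raised 2-fold, 100 of 100 raised 4-fold and 4 of 1703 left unchanged. Simulated DMS rates were built on the untreated rates of the same replicate, so the low DMS rates of replicate 1 were not part of the check.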

Additional observations from a re-analysis of the deposited data

Results flagged for a closer look

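Of 65 values over the 5 pairs that were compared among themselves, 6 had 1 replicate far from the others by Dixon's criterion, a criterion that chance meets in about 5% of groups. The mean DMS minus NC rate at G was -0.455 percentage points in replicate 1, against -0.0306 to 0.0805 in the others. At U it was -0.577 in replicate 1, against -0.0311 to 0.0727. In the shoulder it was -0.724 in replicate 1, against 0.168 to 0.490; this region holds A599, with an NC rate of 36.5% in that replicate. The difference of ITS1 and 18S was -0.0215 in replicate 2, against 0.0691 to 0.0992. At A40 replicate 4 had 0.313 percentage points, against 0.0597 to 0.114, and at A993 replicate 4 had 4.05, against 2.18 to 2.39. The cause of these gaps was not tested.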

How the results depend on the processing

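The count of A and C higher with DMS, 97 in the report, was 47 with no replicate block, 181 with the offset scaled by G and U, 160 with TMM factors, and 67 to 181 with a replicate left out, the highest without replicate 1. In choices made after the data were seen it was 101 in replicates 2 and 3 alone, 241 in replicates 4 and 5 alone and 194 without replicate 1 with the G and U scale. Replicates 4 and 5 alone also gave 20 G and 7 U. The 97 remained called with the G and U scale, with TMM factors, without replicate 1 and with A and C alone (115 calls), and 96 of them with DESeq2 (101 calls). The scaling by G and U moved the median log2 change of all positions by 0.16, and 9 G and 3 U then passed. With limma there were 83 calls and with a depth minimum of 2000 there were 72. The mean at C was -0.0362 percentage points with the median over positions, and with a replicate left out it ranged from -0.0306 to 0.135. That at G ranged from -0.107 to 0.0270 and that at U from -0.158 to 0.00484, positive without replicate 1. At A it was 0.116 to 0.343, ITS1 minus 18S 0.0504 to 0.0805, and predicted unpaired minus paired 0.209 to 0.298 with a replicate left out. Of 50 named and tested nucleotides 14 were lost with no replicate block and 0 with DESeq2. The 50 include C1274, C1280, A1755, A1756, C1773 and A1801, which were not called in the main fit and so could not be lost. C1274, not called, had log2 changes of 0.0071 without replicate 1 and 0.078 with the G and U scale, against -0.14. Depth gave a median counting SD of 0.128 percentage points, which limits smaller differences. Causes were not tested.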
